A study of Mus musculus with 4 samples.

Results

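NRF2, the protein of NFE2L2, is the transcription factor that switches on antioxidant and detoxifying enzymes, and 10 genes around it were considered here: its inhibitor KEAP1, SQSTM1, OSGIN1 and the targets HMOX1, NQO1, GCLM, GCLC, TXNRD1 and SRXN1. They were taken by gene symbol from the array's annotation, and 7 of the 10 had a named probe set, out of 14884 genes named in all. NQO1, GCLM and GCLC have none and were not analysed here. Each of the 7 genes had 1 probe set. The members were chosen with earlier results of these data known. NFE2L2, SQSTM1 and OSGIN1 in particular were already known to rise, so their values are given as description and not as independent evidence.

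The arrays measured total RNA of SW620 cells, a human colon carcinoma line grown in RPMI medium with serum. Mouse is the organism on record, yet both the line and the symbols of the probe sets are human, and the values were read as human. The 2 Ctrl arrays are of untreated cells and the 2 F5446 arrays are of cells given 50 nM F5446 for 2 days, which the labels call SUV39H1-selective, SUV39H1 being a histone H3 lysine 9 methyltransferase. No vehicle is named for the controls, all arrays come from the same line, and nothing says whether replicates were separate cultures, so p-values measure only the spread between these arrays, which may be technical.

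In unstressed cells KEAP1 holds NRF2 and, with the ubiquitin ligase subunit CUL3, marks it for destruction by the proteasome. Oxidants and electrophiles modify KEAP1, NRF2 then accumulates, pairs with a small MAF protein and binds antioxidant response elements of its target genes. The autophagy receptor p62, the protein of SQSTM1, can also bind KEAP1 and carry it to lysosomes, and SQSTM1 is itself an NRF2 target. Much of this control acts on protein stability, which an array of mRNA does not measure.

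F5446-treated cells had more mRNA of NRF2, of p62 and of 4 known NRF2 targets, while the mRNA of KEAP1 did not pass the test. Known NRF2 targets outside the 7 genes also fell: GSR, GPX2, PRDX1, PGD and TALDO1 had log2 fold changes of -1.19 to -0.38. Of other reported targets ENC1 rose, and TRIM16 and PANX2 did not pass. These genes were put together with their values seen. NFE2L2 was 3.02-fold, OSGIN1 2.74-fold and SQSTM1 2.57-fold higher, and the antioxidant enzymes SRXN1, HMOX1 and TXNRD1 were 1.53-fold, 1.40-fold and 1.31-fold higher. In all, 6 of the 7 genes passed limma's test (adjusted p under 0.05 by Benjamini-Hochberg over all named genes) in the upward direction and 0 in the downward one. Over all named genes 40.9% passed, 18.2% higher and 22.7% lower. Of the 14884 named genes 6796 lay under their median level (5.62) on all 4 arrays, and 0 of the 7 did. Of the 4 members not already known to rise, 3 rose. Both treated arrays lay above both controls for 6 of the 7 genes (28.4% of all named genes) and below them for KEAP1 (37.7%), while 66.2% of all named genes had groups that did not overlap. The 3 genes that passed with at least a 2-fold change (12.7% of all named genes did, in either direction) are those already known to rise, so this count is a description only, and 0 of the other 4 reached it. The median log2 fold change of the 7 genes was 0.62, against -0.05 over all named genes. That median includes the 3 genes already known to rise, so it too is a description only.

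**Figure D1:**
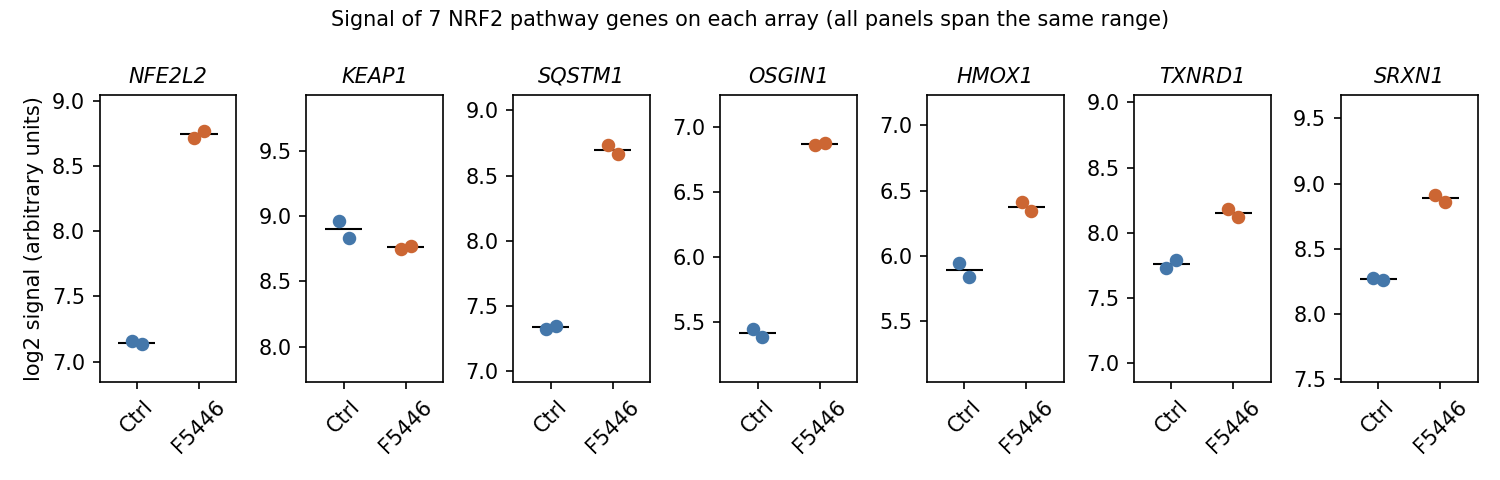
Each panel plots the log2 signal of 1 gene (vertical axis, arbitrary units) on the 2 Ctrl arrays (blue) and the 2 F5446 arrays (orange), with a line at each group mean; all panels span the same range. NFE2L2, SQSTM1 and OSGIN1 show the widest separation, from 1.31 to 1.56 between their nearest arrays, while the KEAP1 groups lie 0.061 apart.

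NFE2L2 (probe set 16905475) had a log2 signal of 7.16 and 7.14 on the Ctrl arrays and of 8.71 and 8.77 on the F5446 arrays. The nearest arrays of different groups were 1.56 apart, whereas arrays of 1 group differed by 0.018 (Ctrl) and 0.058 (F5446). The mean went from 7.15 ± 0.013 to 8.74 ± 0.041 (SD, n = 2 each). This log2 fold change of 1.60 ± 0.079 (SE) had a 95% interval of 1.42 to 1.78 and a limma adjusted p = 5.39e-07. Among all named genes 281 (1.89%) had a larger log2 fold change upward.

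KEAP1 (probe set 16868743), the adaptor that presents NRF2 for ubiquitination, read 8.97 and 8.83 in Ctrl and 8.75 and 8.77 in F5446. Both treated arrays were lower than both control arrays, but the gap of 0.061 was smaller than the 0.13 between the 2 controls. Its log2 fold change was -0.14 ± 0.074 (SE), with a 95% interval of -0.31 to 0.029 and a limma adjusted p = 0.18. The interval allows a fall of up to 0.31 on the log2 scale, so equal levels are not shown. With quantile normalization over all probe sets the value was -0.22 and passed (limma adjusted p = 0.034), whereas centring every array on its median gave -0.01. Over all alternatives its limma adjusted p ran from 0.034 to 0.92.

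SQSTM1 (probe set 16993458) was measured at 7.33 and 7.35 in Ctrl and at 8.73 and 8.66 in F5446. The groups were 1.31 apart at their nearest, against at most 0.068 within a group. The mean moved from 7.34 ± 0.017 to 8.70 ± 0.048 (SD, n = 2 each), and the log2 fold change was 1.36 ± 0.079 (SE, 95% interval 1.18 to 1.54, limma adjusted p = 1.36e-06). A larger upward change was seen in 411 named genes (2.76%).

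OSGIN1 (probe set 16821414) encodes an oxidative stress-induced growth inhibitor that is a known NRF2 target. It read 5.45 and 5.39 in Ctrl and 6.86 and 6.88 in F5446, with 1.41 between the nearest arrays of different groups. The mean went from 5.42 ± 0.040 to 6.87 ± 0.013 (SD, n = 2 each). Its log2 fold change was 1.45 ± 0.11 (SE, 95% interval 1.19 to 1.71, limma adjusted p = 8.96e-06). Its control values lay under 5.62, the median level of all named genes, and the table holds no detection calls, so the fold may be smaller than the true one. Its paralogue OSGIN2 read 7.10 and 7.17 in Ctrl and 7.32 and 7.41 in F5446, a log2 fold change of 0.23 ± 0.094 (SE) that did not pass (limma adjusted p = 0.091) but did after centring (0.35, limma adjusted p = 0.014).

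The antioxidant enzymes moved the same way by smaller amounts. SRXN1 (probe set 16916352), the sulfiredoxin that repairs over-oxidised peroxiredoxins, read 8.28 and 8.26 in Ctrl and 8.91 and 8.86 in F5446. The groups were 0.59 apart, and the log2 fold change was 0.62 ± 0.070 (SE, 95% interval 0.46 to 0.78, limma adjusted p = 9.09e-05). HMOX1 (probe set 16929562), the inducible haem oxygenase, read 5.94 and 5.84 in Ctrl and 6.41 and 6.34 in F5446. Its groups were 0.40 apart against 0.11 within Ctrl, and the log2 fold change was 0.49 ± 0.12 (SE, 95% interval 0.22 to 0.76, limma adjusted p = 0.0088). TXNRD1 (probe set 16756163), the cytosolic thioredoxin reductase, read 7.73 and 7.79 in Ctrl and 8.18 and 8.12 in F5446, with the groups 0.33 apart. Its log2 fold change was 0.39 ± 0.080 (SE, 95% interval 0.21 to 0.57, limma adjusted p = 0.0036). The smaller calls depended on single arrays. HMOX1 missed the threshold without Ctrl replicate 2 (adjusted p = 0.053), F5446 replicate 1 (adjusted p = 0.083) or F5446 replicate 2 (adjusted p = 0.052). TXNRD1 missed it without F5446 replicate 1 (adjusted p = 0.053). In each case the value stayed positive. Over all alternatives the limma adjusted p ran from 0.0018 to 0.083 for HMOX1 and from 0.00063 to 0.053 for TXNRD1.

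**Figure D2:**
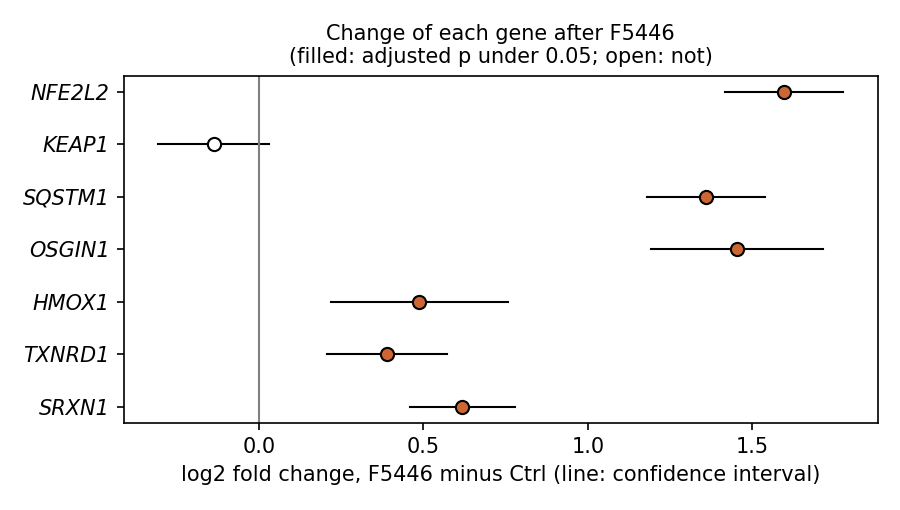
The log2 fold change of each gene, F5446 minus Ctrl (horizontal axis), is drawn with its 95% interval from limma; filled points passed at an adjusted p under 0.05 and the open point did not. NFE2L2, OSGIN1 and SQSTM1 lie between 1.36 and 1.60, SRXN1, HMOX1 and TXNRD1 between 0.39 and 0.62, and the KEAP1 interval spans 0.

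The 95% intervals of NFE2L2, OSGIN1 and SQSTM1 overlap one another, so the order of these log2 fold changes is not resolved. The intervals of SRXN1, HMOX1 and TXNRD1 also overlap one another, and all of them lie under those of the former. A larger upward change than that of SRXN1 was seen in 10.9% of named genes, than that of HMOX1 in 14.0% and than that of TXNRD1 in 17.2%.

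**Figure D3:**
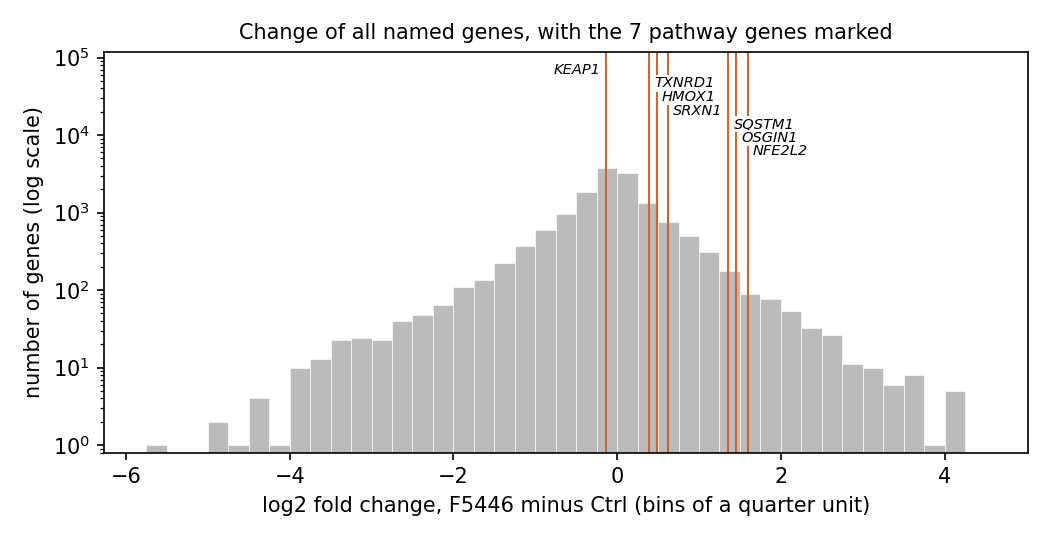
Grey bars count the 14884 named genes (vertical axis, log scale) by log2 fold change, F5446 minus Ctrl (horizontal axis), and orange lines mark the 7 pathway genes. NFE2L2, OSGIN1 and SQSTM1 lie in the upper tail, beyond which 1.89% to 2.76% of genes are found, and KEAP1 lies near the centre.

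The genes whose values over the 4 arrays were most like those of NFE2L2, each gene centred on its own mean, were SPSB1, FNBP4 and NECAP1. Their root mean square differences from NFE2L2 were 0.015, 0.025 and 0.027 on the log2 scale, among 11727 genes with a coding transcript accession. For SQSTM1 they were PLPP5 (0.019), ZSCAN9 (0.020) and MARF1 (0.022). For OSGIN1 they were SFN (0.014), DNAAF9 (0.019) and CD44 (0.024). With 2 groups of 2 arrays, this likeness amounts to a change of like size.

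Other genes of the pathway were read from 12 lists of 164 genes outside the 10 considered above, of which 103, in 11 of the lists, had a named probe set. Of these, 29 rose, 45 fell and 29 did not pass. That is 28.2% higher and 43.7% lower, against 18.2% and 22.7% over all named genes, with a median log2 fold change of -0.12. The 36 measured partners of NRF2, autophagy receptors and stress factors held 22 of the 29 rises (61.1% of the 36), and the 43 measured glutathione and thioredoxin genes held 30 of the 45 falls (69.8% of the 43). These pools were formed after the values were seen, and a difference between roles was not tested. These are bulk samples of a cell line, in which fewer cells of a type and less RNA per cell cannot be told apart.

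**Figure D4:**
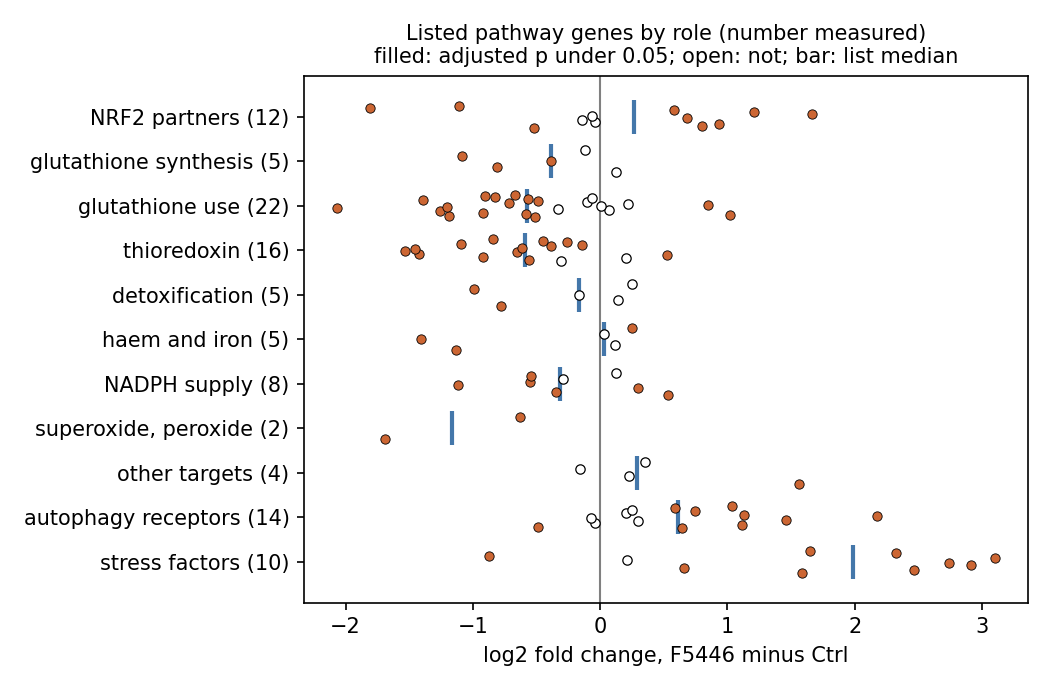
Each point is the log2 fold change, F5446 minus Ctrl (horizontal axis), of 1 gene in 1 of the lists with a measured gene (rows, with the number measured); filled points passed at an adjusted p under 0.05, open ones did not, and blue bars are list medians. The thioredoxin and glutathione use genes lie mostly left of 0, with medians of -0.59 and -0.57, and the stress factors mostly right of it, with a median of 1.99.

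Among the partners, relatives and degraders of NRF2, 6 of 12 measured genes rose and 3 fell, with a median log2 fold change of 0.27. That is 50.0% higher and 25.0% lower, against 18.2% and 22.7% over all named genes. On all 4 arrays 0 of the 12 lay under 5.62, against 6796 of the 14884 named genes, so these shares are not matched for signal level. MAFF, a small MAF protein that pairs with NRF2 on DNA, read 5.32 and 5.55 in Ctrl and 6.94 and 7.27 in F5446, a 3.18-fold rise (limma adjusted p = 1.83e-05). Its Ctrl values lay under 5.62. MAFG, another small MAF, rose 2.31-fold, from 6.61 ± 0.17 to 7.82 ± 0.088 (SD, n = 2 each). CREBBP, the acetyltransferase CBP that serves NRF2 as a coactivator, rose 1.91-fold. The other rises, chosen after their values were seen, were BTRC (1.74-fold), a ubiquitin ligase subunit that marks NRF2 for destruction apart from KEAP1, the coactivator EP300 (1.60-fold) and the NRF2 relative NFE2L1 (1.49-fold). So both coactivators and a degrader of NRF2 rose together with its mRNA.

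The NRF2 relative NFE2L3 moved against NFE2L2. It read 7.43 and 7.44 in Ctrl and 5.50 and 5.75 in F5446, a 3.50-fold fall (log2 fold change -1.81 ± 0.12, SE, limma adjusted p = 3.08e-06). The 3 measured members of this small family, which recognise like DNA elements, thus had log2 fold changes of 1.60 (NFE2L2), 0.58 (NFE2L1) and -1.81 (NFE2L3). PALB2, a partner of BRCA2 that also binds KEAP1, fell 2.16-fold, and AMER1, another KEAP1-binding protein, fell 1.44-fold. CUL3, the ligase scaffold that works with KEAP1, read 9.13 and 9.08 in Ctrl and 9.00 and 9.13 in F5446 with overlapping groups (log2 fold change -0.04, limma adjusted p = 0.70). GSK3B and DPP3 did not pass either, at log2 fold changes of -0.07 and -0.14, though DPP3 passed after quantile normalization (-0.22, limma adjusted p = 0.017).

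Glutathione synthesis and recycling genes held no rise. Of 5 measured genes 3 fell (60%, against 22.7% over all named genes), with a median of -0.38. Among all named genes 18.2% rose. GSS, glutathione synthetase, read 9.85 and 9.88 in Ctrl and 8.77 and 8.79 in F5446, a 2.12-fold fall (limma adjusted p = 1.15e-06). GGCT, which acts in glutathione breakdown, fell 1.76-fold, and GSR, the reductase that regenerates glutathione and is a known NRF2 target, fell 1.30-fold (limma adjusted p = 0.00061). The cystine transporter gene SLC7A11, another well-known NRF2 target, has no named probe set.

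Glutathione peroxidases and transferases gave 14 falls among 22 measured (63.6%, against 22.7% over all named genes), with a median of -0.57. They gave 2 rises (9.09%, against 18.2%). GSTA4, a transferase that detoxifies lipid peroxidation products, fell 4.19-fold, from 7.05 and 6.77 in Ctrl to 4.88 and 4.80 in F5446 (limma adjusted p = 3.51e-06). Its F5446 values lay under 5.62. GSTP1 read 11.2 and 11.2 in Ctrl and 9.92 and 9.67 in F5446, a 2.62-fold fall, and GPX8 fell 2.39-fold. The rises were GPX3, the secreted peroxidase (2.03-fold), and GSTM2 (1.80-fold). Both had Ctrl values under 5.62, and GSTM2 lay under it on all 4 arrays. With dim genes left out 0 rises and 11 falls remained in this list, and GPX8 (mean 5.31) was not tested. Over all named genes 2467 rises and 2846 falls remained in that setting, to which the shares of 18.2% and 22.7% do not apply. Chosen after their values were seen, GPX2, a gut peroxidase and known NRF2 target, fell 2.28-fold, and GPX4, which reduces lipid peroxides in membranes, fell 1.50-fold. GSTM and GSTA genes are close in sequence, so their probe sets may share signal.

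Of the 16 measured thioredoxin system genes 13 fell (81.2%, against 22.7% of all named genes), with a median of -0.59. The list held 1 rise (6.25%, against 18.2%). PRDX2, a cytosolic peroxiredoxin, read 10.8 and 10.8 in Ctrl and 9.35 and 9.14 in F5446, a 2.89-fold fall (limma adjusted p = 4.45e-07). PRDX3, the mitochondrial peroxiredoxin, fell 2.73-fold, from 11.3 ± 0.11 to 9.81 ± 0.039 (SD, n = 2 each). MSRB1, which reduces oxidised methionine, fell 2.68-fold, and MSRA, which acts on the other form of it, rose 1.44-fold. This last call was lost without F5446 replicate 1 (limma adjusted p = 0.084), which left 0 rises in the list. Without Ctrl replicate 2, or with arrays centred on their median, 2 genes of the list rose. The falls numbered 10 to 13 over the alternatives, 11 after centring and 10 without Ctrl replicate 1 or F5446 replicate 2. Thioredoxin itself (TXN), singled out with its value known, had a log2 fold change of -0.14 that passed as deposited (limma adjusted p = 0.026) but not after centring (-0.02, limma adjusted p = 0.79), quantile normalization or the removal of any 1 array. Also singled out with their values known, the peroxiredoxins PRDX1, a known NRF2 target, PRDX4 and PRDX6 fell 1.58-fold, 1.53-fold and 1.31-fold. All 5 measured peroxiredoxins thus fell, also after centring and quantile normalization, while the repair enzyme SRXN1 rose.

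Both measured genes of superoxide and peroxide removal fell, as did 22.7% of all named genes. CAT, catalase, read 8.75 and 8.55 in Ctrl and 6.87 and 7.05 in F5446, a 3.23-fold fall (limma adjusted p = 1.70e-06). CCS, the chaperone that loads copper into superoxide dismutase, fell 1.55-fold. SOD1 and SOD2 have no named probe set. Of 5 measured detoxification genes 2 fell (40%), ESD 1.99-fold and the carbonyl reductase CBR1 1.72-fold, and 0 rose (18.2% of all named genes did). The CBR1 call was lost without Ctrl replicate 2 (limma adjusted p = 0.051), which left 1 fall in the list. The aldo-keto reductases AKR1B10 and AKR1C1, well-known NRF2 targets in human cells, have no named probe set.

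Of 5 measured genes of haem and iron handling, 2 fell and 1 rose. A share of 1 in 5 is close to the 18.2% of all named genes that rose, and 22.7% of all named genes fell. FECH, which makes haem, fell 2.65-fold, from 6.39 and 6.64 in Ctrl to 4.99 and 5.23 in F5446, the latter under 5.62. BLVRA, the reductase that acts on the product of haem oxygenase, fell 2.20-fold (limma adjusted p = 2.96e-05), while BLVRB had a log2 fold change of 0.12 and HMOX2, the constitutive haem oxygenase, 0.03, and neither passed. NCOA4, which delivers ferritin to lysosomes, rose 1.19-fold, a call that was lost without Ctrl replicate 1 (limma adjusted p = 0.058) and without F5446 replicate 2 (0.089), leaving 0 rises in the list.

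NADPH supply genes provide the reducing power of both antioxidant systems. They showed 4 falls among 8 measured (50.0%, against 22.7% of all named genes) and 2 rises (25.0%, against 18.2%), with a median of -0.32. On all 4 arrays 0 of the 8 lay under 5.62, so these shares are not matched for signal level. NNT, the mitochondrial transhydrogenase, fell 2.17-fold, from 10.7 ± 0.021 to 9.56 ± 0.032 (SD, n = 2 each). The pentose phosphate genes PGD and TALDO1, both known NRF2 targets, fell 1.46-fold each. MTHFD1L rose 1.45-fold, and NADK2 rose 1.23-fold. The NADK2 call was lost without F5446 replicate 1 (limma adjusted p = 0.077) or F5446 replicate 2 (0.059), leaving 1 rise in the list. With arrays centred on their median, 3 genes of the list rose and 3 fell, against 3420 and 2735 of the 14884 named genes. None of the 6 listed multidrug exporters has a named probe set.

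Of 4 other reported NRF2 targets or relatives 1 rose (25%, against 18.2% of all named genes). ENC1, a protein of the kelch family that KEAP1 belongs to, read 5.74 and 5.81 in Ctrl and 7.50 and 7.17 in F5446, a 2.95-fold rise (limma adjusted p = 1.34e-05). TRIM16, OSGIN2 and PANX2 had log2 fold changes of 0.36, 0.23 and -0.15 and did not pass. With arrays centred on their median 3 of the 4 rose, and 3420 of the 14884 named genes did.

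Autophagy receptors and ATG8 proteins, the machinery in which p62 works, gave 8 rises and 1 fall among 14 measured, with a median of 0.62. That is 57.1% higher and 7.14% lower, against 18.2% and 22.7% over all named genes. OPTN, the receptor optineurin, read 6.80 and 6.69 in Ctrl and 8.86 and 8.99 in F5446, a 4.53-fold rise (limma adjusted p = 2.06e-07). MAP1LC3B, which encodes the LC3 protein that p62 binds, read 6.55 and 6.51 in Ctrl and 8.05 and 7.94 in F5446, a 2.76-fold rise. The receptor TAX1BP1 rose 2.19-fold, and GABARAP, an ATG8 protein, fell 1.40-fold. Chosen after their values were seen, the receptor CALCOCO2 rose 1.56-fold and TFE3, a regulator of lysosomal genes, 1.68-fold. The other rises of the list, also chosen after their values were seen, were GABARAPL1 (2.16-fold), WDFY3 (2.05-fold) and TOLLIP (1.50-fold). GABARAPL1 read 4.85 and 4.63 in Ctrl, under 5.62. With dim genes left out it was not tested and 7 rises remained in the list, among 2467 over all named genes. SQSTM1 thus rose together with other cargo receptors, among them OPTN, TAX1BP1 and CALCOCO2.

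Factors of the amino acid and endoplasmic reticulum stress response share some targets with NRF2. They gave 8 rises and 1 fall among 10 measured, with a median of 1.99. That is 80% higher and 10% lower, against 18.2% and 22.7% over all named genes. SESN2, a sestrin that binds KEAP1 and p62, read 6.69 and 6.36 in Ctrl and 9.67 and 9.59 in F5446, an 8.57-fold rise (limma adjusted p = 9.89e-08). DDIT3 rose 7.52-fold and DDIT4, an inhibitor of mTORC1, 6.67-fold. ATF4, singled out with its value known, rose 1.58-fold. The sestrins did not move as one: SESN3 fell 1.83-fold, and SESN1, singled out with its value known, had a log2 fold change of 0.21 that did not pass (limma adjusted p = 0.30).

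The balance over all named genes depends on the scaling, with 2714 higher and 3372 lower as deposited, 3420 and 2735 after centring each array, and 2546 and 3615 after quantile normalization. Centring moved the median log2 fold change of all genes from -0.05 to 0.08. Under these scalings the 6 members kept their upward calls, and NFE2L2 lay between 1.55 and 1.72. Of 13 measured colon epithelial markers 3 rose (23.1%) and 6 fell (46.2%), against 18.2% and 22.7% of all named genes. The 13 had summed log2 signals of 94.2 to 95.0 in Ctrl and 89.2 to 89.8 in F5446. EPCAM was at 11.0 ± 0.10 in Ctrl and 10.3 ± 0.075 in F5446 (SD, n = 2 each), VIL1 had the largest fall of the 13 (14.7-fold, log2 fold change -3.87) and CEACAM5 the largest rise (3.80-fold). Of 9 immune markers 0 rose, and CD4 and LYZ fell (22.2%). The 9 had sums of 43.1 to 43.6 in Ctrl and 39.5 to 40.9 in F5446. Of 6 stromal markers 0 rose and LUM fell (16.7%), with sums of 24.4 to 25.0 and 21.9 to 22.8. The log2 fold changes were -1.50 for CD4, -1.79 for LYZ and -3.02 for LUM. Besides these, only CD8A, which did not pass, read above 5.62 on any array among the immune and stromal markers. Over all named genes 22.7% fell, a share not matched for the low signal of most of these markers. On every array 3 of the epithelial, 6 of the immune and 5 of the stromal markers lay under 5.62, and the part of these markers in the results above was not tested.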

How the data were processed

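The authors deposited 1 value per probe set and array for 53617 probe sets, taken here as log2 signal because the values reach 13.8, above 11.09 (the natural log of a 16-bit range) and under 16 (its log2). Partek is the tool named per the submitters' processing notes, and how background, scaling and summary of probe sets were handled is not stated in those notes. Platform annotation names 16098 probe sets with 1 gene each (14884 genes), and 37519 are unnamed here. The probe set with the highest mean stood for a gene. Without further scaling, the 4 arrays entered a model with only a group term in limma 3.58.1 under R 4.3.3 (lmFit, then eBayes with its trend option), with two-sided p-values adjusted by Benjamini-Hochberg over all named genes, threshold 0.05. The fit was tested on simulated data. Fold sizes are 2 to the power of the absolute log2 fold change. Precision is limited by the number of arrays, 2 per group.

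Members and lists were chosen with earlier results of these data known. Named from each list are up to 3 genes with the largest rise and up to 3 with the largest fall among those that passed and whose groups of arrays did not overlap. Others are marked in the text as chosen or singled out with their values seen, or are members of a short list or count named in full, cell type markers or genes most like a member. Alternatives were centring, quantile normalization, a filter on dim genes (mean under 5.62), other variance models, other probe set rules, a replicate block and leaving out each array. No sequences or genomic positions were used here.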

Additional observations from a re-analysis of the deposited data

How the results depend on the processing

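Over 13 alternative settings, 1 of them (quantile normalization over named genes alone) chosen after seeing the data, the calls of NFE2L2, SQSTM1, OSGIN1 and SRXN1 did not change. Their log2 fold changes ran from 1.55 to 1.72, 1.31 to 1.49, 1.42 to 1.58 and 0.55 to 0.74. HMOX1 (0.44 to 0.54 with 1 array left out) and TXNRD1 (0.36 to 0.42) each lost the call without single arrays, and KEAP1 gained one (-0.22) after quantile normalization over all probe sets. With all 53617 probe sets tested, named or not, 6274 were higher and 5483 lower. Rises thus outnumbered falls there, unlike the 2714 and 3372 of the 14884 named genes. Of 39 other genes named by rule, 35 kept direction and call in each setting that tested them, and GPX3, GPX8 and GSTM2 were not tested with dim genes left out. The exceptions were CBR1 (limma adjusted p from 0.0012 to 0.051), MSRA (0.0014 to 0.084), NADK2 (0.0011 to 0.077) and NCOA4 (0.00040 to 0.12). NADK2 and NCOA4 also lost the call without an intensity trend (limma adjusted p = 0.060 and 0.12), and NCOA4 with all probe sets tested (0.052). With the replicate number as a block, 2722 genes were higher and 3342 lower, and the 7 members kept their calls. Same-numbered arrays' deviations correlated at 0.044 over genes, and nothing in the labels states that numbers pair arrays. With no detection calls, folds of dim genes are the least certain.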
